A study of Mus musculus with 21 samples.

Results

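A set of 10 genes whose transcripts mark the endothelium was followed through 21 arrays of cultured mouse aortic smooth muscle cells. The genes were Pecam1, Cdh5, Esam, Emcn, Tek, Tie1, Flt1, Ptprb, Vwf and Egfl7, 10 of 18193 genes on the array with a symbol of their own. All probe sets annotated with 1 of these symbols were taken, 19 of 45101, and for each gene the probe set with the highest mean signal is given unless stated otherwise. The genes were chosen by their measured signals, which were higher on arrays numbered 0 in the title than on those numbered 1 to 3, so that difference is described here without a test.

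The cells were aortic, from C57BL/6J male mice of 10 to 12 weeks, and were kept in DMEM/F12 medium with fetal calf serum. They received 10 µg/ml of an antibody to LTBR, the lymphotoxin beta receptor, or 1 ng/ml of tumour necrosis factor (TNF), or TNF plus the antibody at these doses, or phosphate-buffered saline (PBS), in which the agonists were added, as the control. Both receptors signal to NF-kB, and the series asks how their combined signal changes aortic smooth muscle cells. The antibody, TNF and PBS each had a single array, numbered 0, at 2 h and at 6 h. At 24 h there were 4 arrays each, numbered 0 to 3, for the antibody, TNF and PBS, and 3 arrays, numbered 1 to 3, for the combination. What the numbers stand for is not in the labels, and they may mark cultures, animals or technical repeats, so each p reflects no more than the variation among these arrays. Each sample was read on 1 array, and the number of arrays limits the precision.

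The endothelium is the single layer of cells that lines every blood vessel, and in the aorta it lies next to the smooth muscle of the media. Its cells hold together through junction proteins such as VE-cadherin, sense vascular growth factors and angiopoietins through receptor tyrosine kinases, and store von Willebrand factor and P-selectin for release. Inflammatory cytokines make endothelial cells display selectins and other adhesion molecules that catch leukocytes from the blood. The labels name smooth muscle as the cell type of all samples. Acta2 encodes the smooth muscle actin, a defining marker of that cell type. Its strongest probe set read 17058.0 to 18328.9 on the 9 arrays numbered 0 and 16442.3 to 19661.5 on the 12 others. Its weaker probe sets varied more. One read 527.8 to 1156.9 (median 933.6) on number 0 and 335.0 to 2206.8 (median 1334.4) on the others. Another read 137.6 to 256.6 (median 181.0) and 83.1 to 597.0 (median 216.8). On both, the others reached below and above the range of number 0, so equal Acta2 levels are not read from the strongest probe set. Values are signal intensities from single arrays as deposited, and differences are on the scale of log2(signal + 10.2). Whether the cultures held endothelial cells is not in the labels. If they did, fewer endothelial cells and less RNA per endothelial cell cannot be told apart in such cultures.

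All 10 genes had their 9 arrays numbered 0 above all 12 arrays numbered 1 to 3, where 3.07% of all genes had that order. This follows from how the genes were chosen. Their summed signal was 17770.2 to 22342.0 on the arrays numbered 0, 2706.5 to 2881.5 on the 4 arrays numbered 1, and 863.4 to 1880.5 on the 8 arrays numbered 2 and 3. All 10 exceeded the array median on each array numbered 0. On arrays numbered 1 it was 6 to 7 of the 10, and on arrays numbered 2 and 3 it was 2 to 6.

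**Figure D1:**
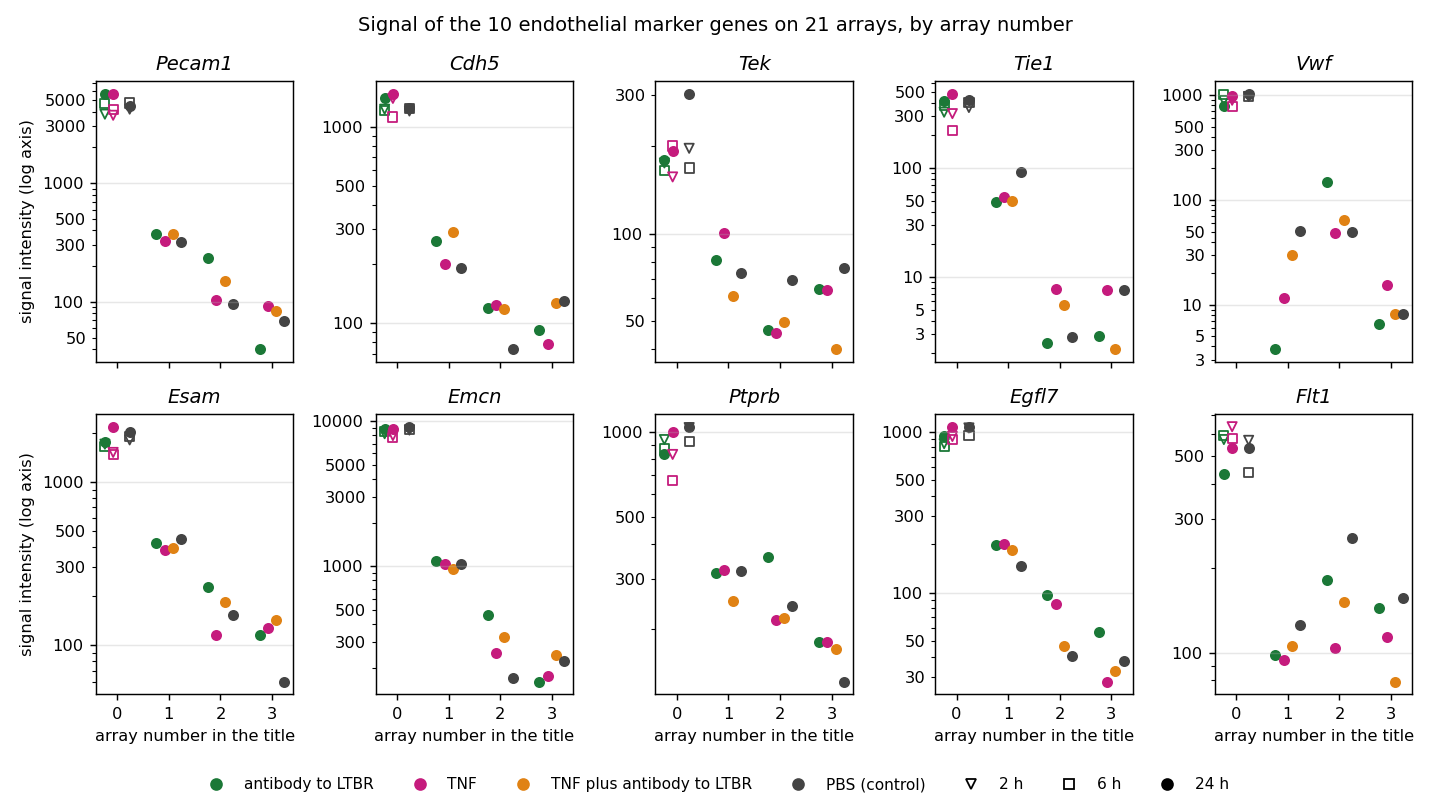
Signal intensity (log axis) of the leading probe set of each of the 10 genes against the array number in the title, with 1 point per array, colours for the treatment and symbols for the time. The 9 arrays numbered 0 stand above the 12 others in every panel, and the 4 arrays numbered 1 stand above those numbered 2 and 3 for Pecam1, Cdh5, Tie1, Esam, Emcn and Egfl7.

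Among the junction and surface proteins the difference was largest for Pecam1. Pecam1 (CD31), an adhesion molecule of endothelial junctions that platelets and leukocytes also carry, read 3727.0, 4438.0 and 5653.2 as the lowest, median and highest of the 9 arrays numbered 0. On arrays numbered 1 Pecam1 read 369.9 with the antibody, 322.8 with TNF, 375.5 with both and 318.7 with PBS, and on arrays numbered 2 and 3 it ran from 40.3 to 234.4. The mean at 24 h was 6.62% of the number 0 mean on arrays numbered 1 and 2.08% on those numbered 2 and 3, so the levels fell into 3 tiers that did not overlap.

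Emcn, which encodes the sialomucin endomucin of the endothelial surface, gave the same 3 tiers. It read 7674.4, 8669.0 and 9142.8 as the lowest, median and highest of the arrays numbered 0. On arrays numbered 1 Emcn read 1084.9 with the antibody, 1031.6 with TNF, 961.9 with both and 1042.7 with PBS, and on the 8 others it was between 160.4 and 465.4. Within number 0 it was the steadiest of the 10, with a coefficient of variation of 5.46% over 9 arrays that differ in treatment and time.

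Cdh5 encodes VE-cadherin, the cadherin of endothelial adherens junctions. Its lowest, median and highest signals were 1121.7, 1239.7 and 1473.7 on number 0, against 190.8 to 291.6 on number 1 and 74.0 to 130.4 on numbers 2 and 3. Esam, an immunoglobulin-like adhesion molecule of endothelial tight junctions and platelets, followed the same order. It read 1478.4, 1770.2 and 2181.6 on number 0, against 381.7 to 447.4 on number 1 and 59.9 to 226.7 on numbers 2 and 3.

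The receptors and the phosphatase that acts on them differed less, with Tie1 as the exception. Tie1, a receptor tyrosine kinase that modulates angiopoietin signalling through Tie2, read 223.4, 374.3 and 482.3 on number 0. On arrays numbered 1 Tie1 read 49.4 with the antibody, 53.9 with TNF, 49.9 with both and 93.2 with PBS, while no array numbered 2 or 3 passed 7.8. These last values are below the offset of 10.2 used on the log2 scale, so log2 differences among them are compressed.

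Tek encodes Tie2, the angiopoietin receptor. It read 156.9, 180.1 and 303.5 on number 0, against 61.1 to 100.6 on number 1 and 40.1 to 76.4 on numbers 2 and 3, so the lower tiers overlapped. Flt1, the VEGF receptor 1, read 432.5, 569.8 and 637.1 on number 0. Here the arrays numbered 1, at 94.0 to 125.2, lay within the range of those numbered 2 and 3, at 78.9 to 256.5.

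Ptprb encodes VE-PTP, a receptor phosphatase that acts on Tie2 and VE-cadherin. Its signals were 672.0, 923.3 and 1043.3 on number 0, against 250.7 to 324.4 on number 1 and 129.6 to 358.9 on numbers 2 and 3. The tiers of numbers 1 and 2 to 3 overlapped for Ptprb as they did for Tek and Flt1.

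Of the secreted products, Vwf, the clotting glycoprotein that endothelial cells store in Weibel-Palade bodies, read 776.6, 971.3 and 1030.9 on number 0. On arrays numbered 1 it read 3.8 with the antibody, 11.7 with TNF, 30.1 with both and 50.9 with PBS. On arrays numbered 2 and 3 Vwf ran from 6.6 to 148.6, so number 1 was not intermediate for this gene. Egfl7, a secreted protein with EGF-like domains whose gene hosts miR-126, read 807.2, 939.6 and 1072.9 on number 0. It stood at 146.4 to 201.3 on number 1 and 27.9 to 96.6 on numbers 2 and 3, 3 tiers again.

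Measured as the mean difference of number 0 from numbers 1 to 3 within the antibody, TNF and PBS groups at 24 h, the 10 genes spread widely. Pecam1 differed by 5.07 ± 0.09 on the log2 scale (SD over the 3 groups) and Emcn by 4.52 ± 0.20. Egfl7 differed by 3.51 ± 0.42, Esam by 3.33 ± 0.35 and Cdh5 by 3.30 ± 0.13. Ptprb at 1.95 ± 0.33, Flt1 at 1.81 ± 0.39 and Tek at 1.57 ± 0.30 formed the low end. Vwf at 4.74 ± 0.18 and Tie1 at 4.12 ± 0.20 have no place in this order, since signals below 10.2 on the lower arrays make the size of their differences depend on that offset. The median was 3.42, against -0.04 over all genes.

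In 6 of the 10 genes, Pecam1, Cdh5, Tie1, Esam, Emcn and Egfl7, all 4 arrays numbered 1 lay above all 8 arrays numbered 2 and 3, an order that 5.38% of all genes had. The arrays numbered 1 were part of the contrast that chose the genes, so this count is a description as well. Leaving aside Vwf and Tie1, which read below 10.2 on some arrays, the mean on number 1 was between 6.62% (Pecam1) and 34.97% (Tek) of the number 0 mean at 24 h. On numbers 2 and 3 it was between 2.08% (Pecam1) and 29.67% (Flt1).

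Of the 19 probe sets, 15 placed all 9 arrays numbered 0 above the 12 others. Those that did not were a Ptprb probe set that read at most 31.6 on any array, a second Cdh5 probe set, and 2 of the 4 for Flt1. The second Cdh5 probe set read 114.6 to 175.0 on number 0 and 45.8 to 126.5 on the others. The 2 Flt1 probe sets read 230.3 to 503.6 and 250.7 to 450.9 on number 0, against 80.2 to 249.2 and 67.4 to 253.0 on the others. All 4 probe sets of Egfl7 kept the order, with mean log2 differences between 1.59 and 3.51.

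Genes of the same biology were taken from lists and read on all genes listed on the array, with no filter. The lists were drawn up with earlier results of these data known, so they give no independent support. Over all genes, 6.17% had their 3 arrays numbered 0 at 24 h above the 9 arrays of the same treatments numbered 1 to 3, and 5.75% had them below. Of 8 endothelial transcription factors, 7 lay above, with a median log2 difference of 2.54 and a highest value of 4.11 for Tal1. Erg, an ETS factor of endothelial cells, overlapped, with a difference of 0.53. Of 19 other pan-endothelial genes 11 lay above, with a median of 1.25 and Icam2, an adhesion molecule for leukocyte integrins, highest at 5.25.

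The other 8 pan-endothelial genes overlapped between the numbers. Kdr, the VEGF receptor 2 and the main mitogenic VEGF receptor of endothelium, read 170.1, 230.5 and 308.3 as the lowest, median and highest on number 0, against 180.7, 264.9 and 362.3 on the others. The 2 ranges of Kdr thus overlapped on arrays where those of Pecam1 lay far apart. Cldn5, the claudin of endothelial tight junctions, read 9.5 to 87.7 on number 0 and 42.2 to 97.1 on the others and was above the array median on none. These genes were read with single probe sets, and a low signal can also come from a probe set that detects its transcript poorly.

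None of 7 arterial and venous genes and none of 3 lymphatic genes lay above on number 0, beside 6.17% of all genes. Their medians were -0.01 and -0.10. Of these, Notch4, Gja5, Aplnr, Prox1 and Lyve1 did not pass the filter on low signals used for the tests at 24 h. Sox17, a factor of arterial endothelium on the list of transcription factors, lay above by 3.997, so the result holds for the listed genes only. Prox1, the transcription factor of lymphatic endothelium, read 7.1 to 29.4 on number 0 and 5.4 to 41.6 on the others. Lyve1, a hyaluronan receptor of lymphatic vessels and some macrophages, read 38.1 to 74.9 and 42.9 to 98.5. Both endothelial activation genes lay above: Sele by 3.25 and Selp by 2.57 on the log2 scale.

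Of the lists for other cell types, none had a gene above without overlap on number 0. The 10 smooth muscle contractile genes had a median of -0.54, and 1 lay below. That gene was Myh11, the smooth muscle myosin heavy chain and a marker of differentiated smooth muscle. Myh11 read 110.7, 169.2 and 202.0 as the lowest, median and highest on number 0, against 529.2 to 822.3 on number 1 and 1737.5 to 3337.8 on numbers 2 and 3. On this probe set the 3 tiers did not overlap and ran in the order opposite to that of Pecam1 and Emcn, with a mean log2 difference of -3.46. A weaker Myh11 probe set was above the array median on no array. It read 5.2 to 20.0 on number 0, 6.7 to 9.4 on number 1 and 17.5 to 82.1 on numbers 2 and 3, so number 1 was not intermediate there.

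Of 10 macrophage and monocyte genes 2 lay below and none above, with a median of -0.76 and a summed signal of 1155.8 to 1471.8 on number 0, 1746.4 to 2149.0 on number 1 and 1556.8 to 5199.9 on numbers 2 and 3. The medians were -0.06 for 6 pericyte genes, 0.04 for 6 adventitial fibroblast genes, -0.15 for 7 lymphocyte and leukocyte genes, 0.23 for 4 adipocyte genes and -0.14 for 4 mesothelial genes. Of the leukocyte, adipocyte and mesothelial lists, at most 1 gene each exceeded the median of any array. Their medians thus compare mostly low signals and say little about these cell types. The part of cell composition in the endothelial signals was not tested.

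**Figure D2:**
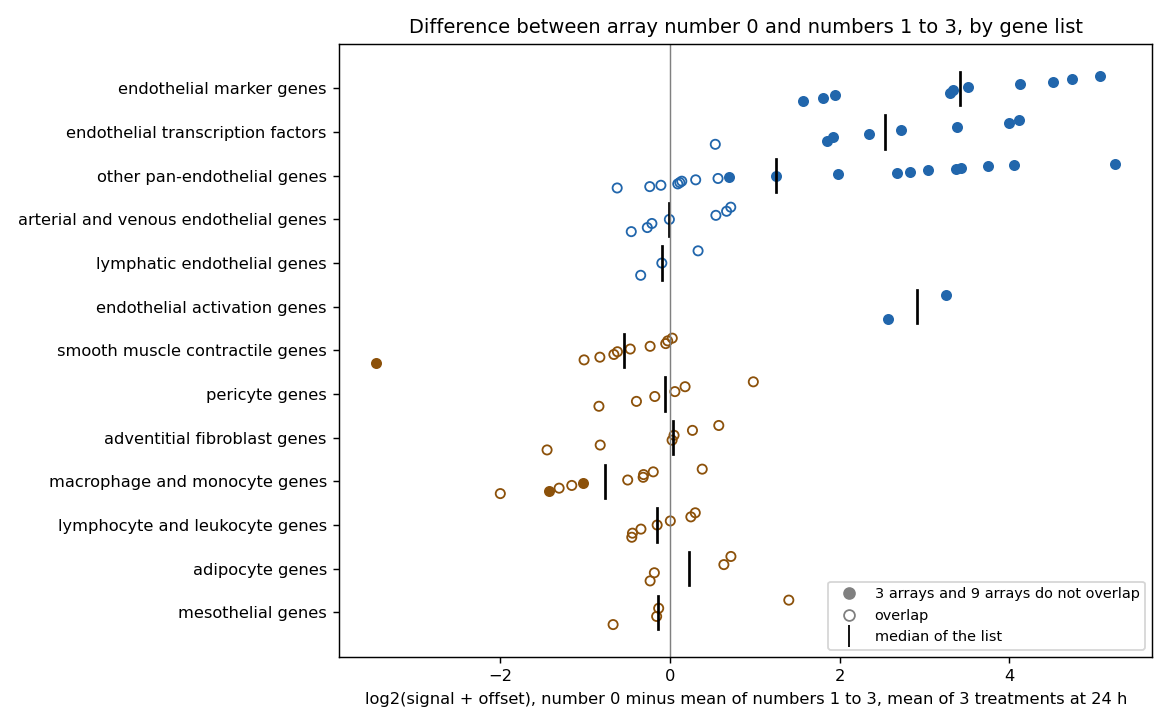
Each point is 1 gene, placed at the difference of log2(signal + 10.2) between array number 0 and the mean of numbers 1 to 3, averaged over the antibody, TNF and PBS groups at 24 h; filled points are genes whose 3 and 9 arrays do not overlap, and black bars are list medians. The endothelial marker genes, most transcription factors and Sele and Selp lie to the right. The genes of the arterial and venous list and of the lymphatic list lie around 0, and Myh11 is the filled point at -3.46.

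The genes with the profile most like that of the 10 were sought over all 21 arrays as those with the smallest root mean square difference, on the log2 scale and after each gene was centred, from the mean profile of the 10. Of 12446 genes ranked, the closest that were not among the 10 were Procr at 0.29, Ctla2a at 0.31, Cxcl15 at 0.32, Cd93 at 0.34, Sox17 at 0.35 and Bmx at 0.36. Procr is the endothelial protein C receptor, Cd93 a lectin-like membrane protein of endothelium and myeloid cells, Sox17 a transcription factor of arterial endothelium and Bmx a kinase of the Tec family. Ctla2a, Cxcl15 and Bmx were on none of the endothelial lists used here. Procr read 7546.5 to 9030.0 on number 0 and 412.8 to 1604.1 on the others. Among the 10 themselves Cdh5 at 0.29, Esam at 0.30 and Egfl7 at 0.35 were nearest to their mean profile, while Tek at 1.00 and Vwf at 1.06 were farthest. With 9 of the 21 arrays numbered 0, this measure mostly follows that split.

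The RefSeq promoter table of GRCm38.p6 held a start for 5 of the 10 genes, Emcn, Tie1, Tek, Flt1 and Egfl7. The 250 bases before that start are shown for Emcn and Tie1, which had large differences between the numbers, and for Tek and Flt1, which had smaller ones. The size for Tie1 depends on the offset. The Flt1 window lies wholly inside the annotated span of the gene. For Emcn and Tek the windows cross into that span, which starts at 137341062 for Emcn and 94739086 for Tek. Most of the Tek window and a small part of the Emcn window thus lie inside the gene. The capitals mark GGAAG on either strand, the core letters bound by ETS factors, the family to which Erg and Fli1 belong. Emcn lies at chr3:137340828-137341077 (plus strand), Tie1 at chr4:118489850-118490099 (minus), Tek at chr4:94739039-94739288 (plus) and Flt1 at chr5:147726012-147726261 (minus).
Emcn: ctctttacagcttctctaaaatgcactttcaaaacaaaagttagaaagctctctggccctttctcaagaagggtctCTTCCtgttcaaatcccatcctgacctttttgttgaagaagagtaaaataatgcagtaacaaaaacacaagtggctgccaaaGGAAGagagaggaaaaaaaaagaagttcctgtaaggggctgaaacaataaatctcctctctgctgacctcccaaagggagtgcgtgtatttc
Tie1: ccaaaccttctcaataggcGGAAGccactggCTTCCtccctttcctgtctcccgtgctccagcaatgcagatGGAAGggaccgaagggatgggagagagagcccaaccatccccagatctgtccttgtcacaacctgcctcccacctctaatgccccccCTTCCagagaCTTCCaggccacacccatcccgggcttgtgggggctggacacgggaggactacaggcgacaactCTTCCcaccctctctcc
Tek: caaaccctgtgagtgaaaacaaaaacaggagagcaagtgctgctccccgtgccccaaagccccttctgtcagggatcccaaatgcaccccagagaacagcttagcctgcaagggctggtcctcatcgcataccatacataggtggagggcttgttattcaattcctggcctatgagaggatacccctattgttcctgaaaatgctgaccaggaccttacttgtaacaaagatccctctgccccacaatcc
Flt1: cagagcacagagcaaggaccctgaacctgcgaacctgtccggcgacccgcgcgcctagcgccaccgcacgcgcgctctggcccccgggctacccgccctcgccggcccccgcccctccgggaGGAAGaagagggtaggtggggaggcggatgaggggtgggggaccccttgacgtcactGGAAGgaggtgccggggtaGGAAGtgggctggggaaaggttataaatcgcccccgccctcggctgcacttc
The letters GGAAG occurred 2 times for Emcn, 6 times for Tie1, 0 times for Tek and 3 times for Flt1, and 4, 2 and 0 times before the 3 starts of Egfl7. Of 32851 windows of the same length before the starts of all genes in the table, 64.1% held the letters at least once, with a mean of 1.09 occurrences. These matches describe the letters in the windows only.

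The times after stimulation could be compared only on number 0, with 1 array per treatment and time and so without a replicate. None of the 10 genes reached a 2-fold difference from PBS at 2 h or 6 h. With the antibody 0 of 10 were 2-fold higher and 0 lower at 2 h, where 0.836% and 0.667% of all genes tested were, and 0 and 0 at 6 h, against 1.25% and 0.466%. With TNF the counts were also 0 and 0 at 2 h, against 1.7% and 0.82%, and 0 and 0 at 6 h, against 2.42% and 0.675%. The medians of the 10 log2 differences were -0.13 and -0.04 for the antibody at 2 h and 6 h, and -0.17 and -0.19 for TNF.

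The lowest of these values was Tie1 with TNF at 6 h. Tie1 read 317.1, 223.4 and 482.3 with TNF at 2, 6 and 24 h, and 360.8, 401.6 and 420.2 with PBS, a log2 difference of -0.82 at 6 h. The highest was Flt1 with the antibody at 6 h, 591.7 against 438.6 with PBS, a log2 difference of 0.42. At 24 h on number 0 the differences from PBS ran from -0.72 (Tek) to 0.34 (Pecam1) with the antibody and from -0.62 (Tek) to 0.35 (Pecam1) with TNF. Tek was the gene with the most uneven PBS arrays, at 196.9, 168.5 and 303.5 for 2, 6 and 24 h.

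In PBS alone 9 of the 10 genes were higher at 24 h than at 2 h on number 0, by a median of 0.08 on the log2 scale. The range was -0.09 for Flt1 to 0.60 for Tek. Over all 9 arrays numbered 0 the full range of each gene was between 0.25 (Emcn) and 1.08 (Tie1) on the log2 scale. For Tek it was 0.91, beside a difference between numbers of 1.57.

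The selectins behaved otherwise on the same arrays. Sele encodes E-selectin, which endothelial cells make after cytokine stimulation, and it read 9762.7, 2790.0 and 712.8 with TNF at 2, 6 and 24 h, against 799.0, 792.2 and 637.1 with PBS. The ratios to PBS were 12.2 at 2 h, 3.52 at 6 h and 1.12 at 24 h. With the antibody Sele read 1074.4, 1198.0 and 985.3, ratios of 1.34, 1.51 and 1.55.

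Selp encodes P-selectin, which is stored with von Willebrand factor and is also induced by TNF in mouse endothelium. It read 7477.8, 7190.9 and 5589.2 with TNF at 2, 6 and 24 h, against 4292.3, 4136.8 and 4773.9 with PBS, ratios of 1.74, 1.74 and 1.17. With the antibody it read 4099.7, 4062.4 and 4972.8, ratios of 0.955, 0.982 and 1.04. Vwf, by contrast, read 894.2, 776.6 and 977.6 with TNF, against 972.5, 971.3 and 1030.9 with PBS.

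**Figure D3:**
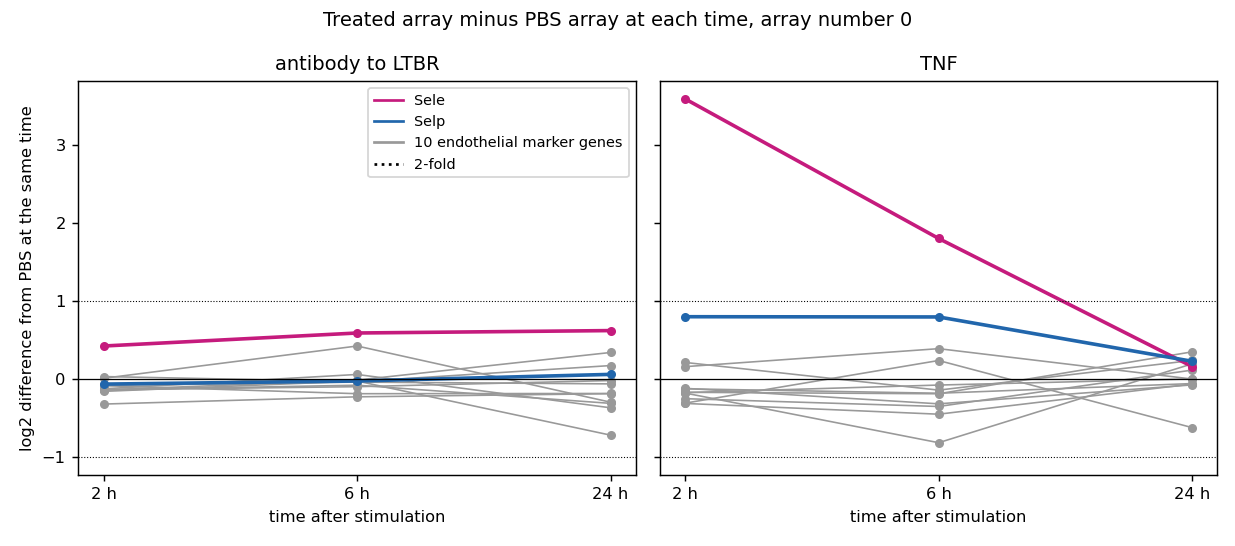
Difference of log2(signal + 10.2) between the treated array and the PBS array at 2, 6 and 24 h on array number 0, for the antibody (left) and TNF (right), with 1 array per point. The 10 grey lines stay within the dotted 2-fold limits, while Sele with TNF stands at 3.59 at 2 h and Selp at 0.80.

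At 24 h the treatments were compared within array numbers, with limma on all 15 arrays, the number as a block and Benjamini-Hochberg adjustment over 12446 genes. None of the 10 genes passed an adjusted p of 0.05 in any of the 6 comparisons. For the antibody against PBS it was 0 of 10, against 4.8% of all genes tested, for TNF 0 of 10, against 5.99%, and for the combination 0 of 10, against 19.5%. For the combination it was 0 of 10 against TNF (6.78% of all genes) and 0 of 10 against the antibody (5.65%). For the interaction of the agonists it was 0 of 10 (0.0161%). At an unadjusted p under 0.05 the numbers were 0, 1, 2, 0, 0 and 1 in the same order. The medians of the 10 log2 changes were 0.18 for the antibody, 0.05 for TNF and -0.04 for the combination against PBS, and those of all genes were -0.01, -0.02 and 0.0006. Tek and Tie1 passed the filter on low signals, which asked for a signal over the array median on 3 or more of 15 arrays, only through the arrays numbered 0. Vwf passed with 4 arrays, of which 1 was numbered 1 to 3, so it too would have failed without number 0.

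The 95% intervals say how large a change each gene could hide. For Ptprb, the narrowest, the interval was -0.46 to 0.26 with the combination, around a log2 change of -0.10. For Emcn it was -0.23 to 0.75 around 0.26, and for Pecam1 -0.18 to 0.95 around 0.38. For Vwf, the widest, it was -1.12 to 0.97 around -0.08, with signals of 3.8 to 148.6 on numbers 1 to 3. A 2-fold fall of Vwf thus lay inside its interval, and one of Ptprb did not on its leading probe set. A second Ptprb probe set gave -0.48 ± 0.34 (SE) with the combination, so a 2-fold fall is not excluded for the gene.

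Flt1 came nearest to the threshold. At 24 h it read 432.5, 97.9, 181.4 and 144.3 with the antibody on numbers 0 to 3, 533.7, 94.0, 104.1 and 113.5 with TNF, and 533.9, 125.2, 256.5 and 157.1 with PBS. With the combination Flt1 read 106.0, 151.0 and 78.9 on numbers 1 to 3. On this probe set every treated array was below the PBS array of its number, in 4 of 4 pairs for the antibody and TNF and in 3 of 3 for the combination. The TNF pair numbered 0 was nearly equal, at 533.7 against 533.9. Other Flt1 probe sets gave log2 changes of 0.08, -0.0085 and -0.33 with TNF and -0.49, -0.10 and -0.52 with the combination. The log2 change was -0.30 ± 0.19 with the antibody (SE, limma, adjusted p = 0.432), -0.51 ± 0.19 with TNF (adjusted p = 0.15) and -0.56 ± 0.21 with the combination (adjusted p = 0.0813). The combination against TNF gave -0.05 ± 0.21 (limma, adjusted p = 0.919).

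Tek was lower than PBS in 3 of 3 pairs with the combination, at 61.1, 49.6 and 40.1 against 73.0, 69.3 and 76.4 with PBS on numbers 1 to 3. On all 12 arrays numbered 1 to 3, and so on every array of the combination, the Tek signal was below the median of the array, and Tek was in the test only through the arrays numbered 0. Among these low signals its log2 change was -0.56 ± 0.23 (SE, limma, adjusted p = 0.118), and no direction is read from it. With the antibody and with TNF, Tek was lower in 3 of 4 pairs each, by -0.32 and -0.24.

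Cdh5 read 291.6, 118.4 and 126.0 with the combination, against 190.8, 74.0 and 130.4 with PBS on numbers 1 to 3, a log2 change of 0.40 ± 0.19 (SE, limma, adjusted p = 0.17). Without the PBS array numbered 3 the change was 0.63 with an adjusted p of 0.0139 in limma, and without all arrays numbered 3 it was 0.54 with 0.0463. Flt1 passed with the combination when the TNF array numbered 0 or 2 was left out, at -0.62 (limma, adjusted p = 0.0458) and -0.58 (adjusted p = 0.0285). Without all 3 arrays numbered 0 at 24 h, none of the 10 passed in any comparison.

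Pecam1 was higher than PBS in 4 of 4 pairs with TNF and 3 of 3 with the combination, by 0.21 ± 0.24 and 0.38 ± 0.26 on the log2 scale, which is within its error (limma, adjusted p = 0.697 and 0.36). Egfl7 gave the lowest unadjusted p of the 10 in the interaction, -0.70 ± 0.32 (limma, adjusted p = 0.518). It read 197.0, 96.6 and 56.7 with the antibody, 201.3, 85.1 and 27.9 with TNF, 184.0, 46.3 and 32.5 with both and 146.4, 40.6 and 37.3 with PBS on numbers 1 to 3. On numbers 2 and 3 all of these Egfl7 signals were below the median of their array.

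**Figure D4:**
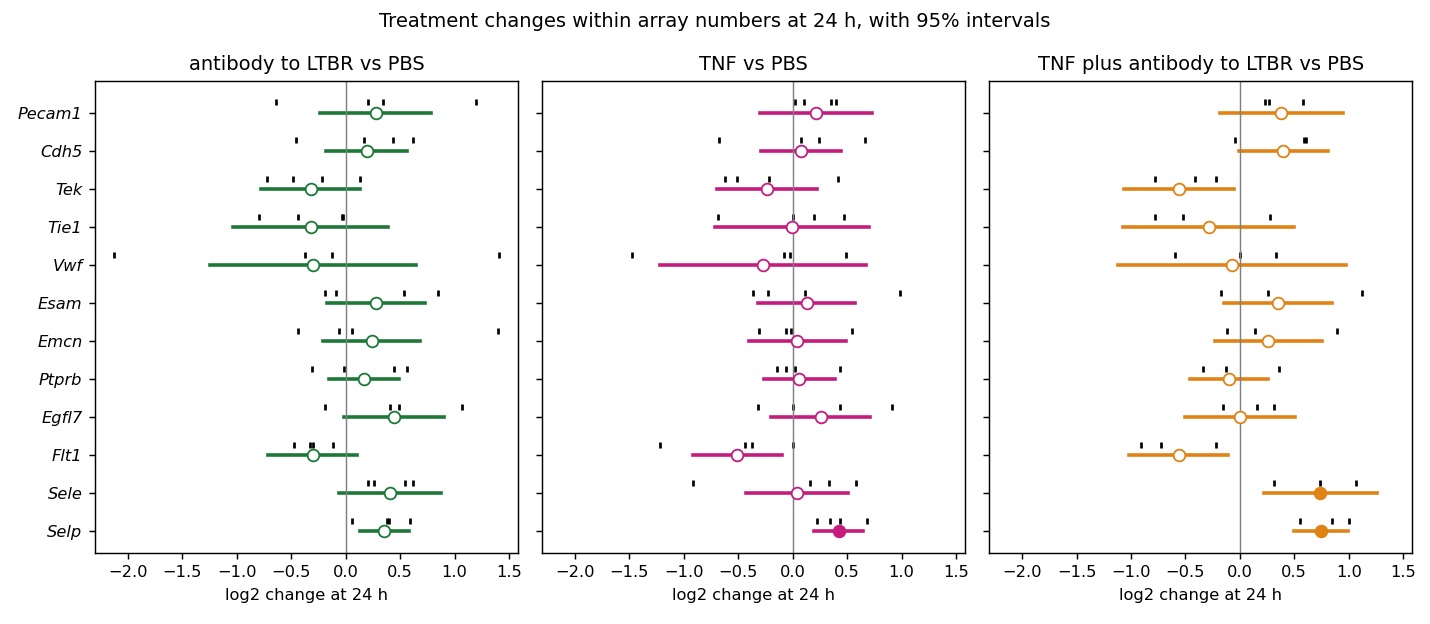
Log2 change against PBS at 24 h within array numbers for the 10 genes and for Sele and Selp, with 95% intervals from limma; black ticks are the single pairs of a treated and a PBS array of the same number, and filled points have an adjusted p under 0.05. The filled points are Selp with TNF and Selp and Sele with the combination, and the intervals of Flt1 with TNF and of Flt1 and Tek with the combination lie below 0 although none of these passed after adjustment. No direction is read for Tek, whose signals with the combination were all below the array median. The Sele signals on numbers 2 and 3 were below it as well.

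The 2 selectins passed where the 10 did not. Selp read 4972.8, 721.8, 1237.2 and 920.0 with the antibody on numbers 0 to 3, 5589.2, 748.7, 1043.5 and 1121.7 with TNF and 4773.9, 552.9, 819.4 and 695.1 with PBS. With the combination it read 1120.3, 1477.9 and 1023.5 on numbers 1 to 3. Selp was above PBS in 4 of 4 pairs with each single agonist and in 3 of 3 with the combination.

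Selp rose with the combination by 0.75 ± 0.12 on the log2 scale (SE, limma, adjusted p = 0.000445) and with TNF by 0.42 ± 0.11 (adjusted p = 0.0319), and the antibody gave 0.36 ± 0.11 (adjusted p = 0.0736). The TNF call was lost in 9 of 19 fits that left out an array or a number. Sele read 202.7, 75.1 and 91.0 with the combination, against 117.7, 58.6 and 38.2 with PBS on numbers 1 to 3. The log2 change of Sele with the combination was 0.74 ± 0.24 (limma, adjusted p = 0.0452), a call lost in 13 of 19 such fits, with adjusted p up to 0.179. Sele exceeded the array median on all arrays numbered 1 but on no array numbered 2 or 3. Its change thus rests largely on low signals.

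Among the other endothelial lists, calls with the combination in both directions were found for the transcription factors and the pan-endothelial genes. These genes were picked for naming after their values were seen. Over all 12446 genes the combination gave 1133 rises and 1294 falls, 19.5% in all. Of 8 endothelial transcription factors tested 1 rose and 2 fell, with a median of -0.10. Sox7, a factor of vascular development, rose by 0.60 ± 0.19 (SE, limma, adjusted p = 0.041), while Erg fell by 0.82 ± 0.13 (adjusted p = 0.000533) and Fli1 fell by 0.48 ± 0.11 (adjusted p = 0.00936).

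Of 16 other pan-endothelial genes tested 4 rose and 1 fell, beside 19.5% of all genes called, with a median of 0.17. The rises were Plvap, which forms the diaphragms of endothelial pores and caveolae, at 1.53, Ecscr at 1.22, Calcrl, the receptor subunit for adrenomedullin, at 0.65 and Procr at 0.64. Clec14a, an endothelial lectin-like protein, fell by 0.67. Plvap rose also with the antibody, by 1.58 ± 0.29 (SE, limma, adjusted p = 0.0062), where 2 of the 16 rose and none fell, beside 320 rises and 278 falls over all genes (4.8%). With TNF 1 of the 16 rose and 1 fell, beside 382 rises and 363 falls (5.99%). Of 4 arterial and venous genes tested 1 rose with the combination, Ephb4, an ephrin receptor of veins, by 0.81 ± 0.16 (SE, limma, adjusted p = 0.00288), and none fell. With TNF 1 of the 4 fell and none rose. That gene was Gja4, with a log2 change of -0.67 ± 0.18 (SE, limma, adjusted p = 0.0485). The only lymphatic gene tested was not called.

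Of 10 smooth muscle contractile genes 6 fell with the combination and none rose, beside 1294 falls over all 12446 genes, with a median of -0.42. With TNF 6 of the 10 fell, beside 363 over all genes, and with the antibody 2, beside 278. These comparisons share the PBS arrays.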

How the data were processed

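The authors deposited linear signal intensities for 45101 probe sets on 21 arrays, made with GCOS 1.4 per the submitters' processing notes. How probes were summarized is not given in the sources used here. Trimmed by 2% at both ends, the mean of each array is 500.0, and no further normalization was applied. Signals entered as log2(signal + 10.2), the added value being the 10th percentile at 24 h. Control probe sets (64) were left out. At 24 h 25110 probe sets exceeded the array median on 3 or more of 15 arrays, and for each of 12446 genes the one with the highest mean was tested. The fit used limma 3.58.1 in R 4.3.3 with a variance trend, all 15 arrays and the array number as a block, and was tested on simulated data. Arrays with the same number deviated together from their group means (21 pairs, correlation 0.46 to 0.81; 63 other pairs, -0.59 to 0.22), so the numbers pair the arrays. A call is an adjusted p under 0.05. Levels by number and by time have no test.

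The members and lists were chosen with earlier results of these data known. Named are all 10 members, Sele, Selp, Kdr, Cldn5, Prox1, Lyve1, Acta2 and Myh11, and the 6 other genes nearest to the members' mean profile, and further genes only where stated. Alternatives were the fit without the block, offsets of 1 and 50, other filters and normalizations, other uses of the probe sets, no variance trend, and leaving out each array and each number. Gene symbols come from the array platform's annotation, which can be old. Python 3.11.15 drew the plots.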

Additional observations from a re-analysis of the deposited data

Results flagged for a closer look

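Of 36 sets of 4 arrays at 24 h, 2 held an array far from the other 3, and chance gives this in about 5% of such sets. For Flt1 with TNF the array numbered 0 stood apart, with a gap to its neighbour of 0.896 of the range. For Tek with PBS it was again the array numbered 0, at 0.938. Both genes belong to the set chosen for high signals on that number.

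Several log2 differences from PBS had one sign on the single array pair at 2 h or 6 h and the other in all 4 pairs at 24 h; none of these differences between times was tested. Pecam1 with TNF stood at -0.17 at 2 h and -0.19 at 6 h, and above 0 in 4 of 4 pairs at 24 h. Flt1 with TNF stood at 0.16 and 0.39, and with the antibody at 0.009 and 0.42, and below 0 in 4 of 4 pairs at 24 h with either. The TNF pair numbered 0 at 24 h was nearly equal, at -0.001. Selp with the antibody stood at -0.066 and -0.026, and above 0 in 4 of 4 pairs at 24 h.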

How the results depend on the processing

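None of the 10 genes was called in any of the 6 comparisons under the settings tried, except for the combination against PBS, where 1 of 10 was called when all probe sets of a gene were averaged (Flt1, -0.42, limma, adjusted p = 0.0458), and 0 to 1 when an array or number was left out. Array numbers pair the arrays, and without this block the genes called over all genes were 16 for the antibody (598 with it), 42 for TNF (745), 305 for the combination (2427), 6 against TNF (844), 45 against the antibody (703) and 0 for the interaction (2), and Selp lost both calls. The call of Sele with the combination was lost with an offset of 1 (limma, adjusted p = 0.0562), no filter (0.0735), all probe sets tested (0.053) and no variance trend (0.0545), that of Selp with TNF with no variance trend (0.0779), and Selp with the antibody passed with equal medians (0.0243) and means over probe sets (0.0227). The combination has no array numbered 0, and without the block 6 signs turned for it: Pecam1 -0.89, Cdh5 -0.43, Esam -0.48, Emcn -0.87, Egfl7 -0.87 and Sele -0.0731. Means over probe sets gave 377 for the antibody and 513 for the combination against TNF, equal array medians 487 for TNF and 492 for the combination against TNF, and no variance trend 523 against TNF, 464 against the antibody and 0 for the interaction. Testing every probe set gave 3778 for the combination and 6 for the interaction. With equal medians, higher and lower calls were 413 and 60 for the antibody (320 and 278 otherwise), 344 and 143 for TNF (382 and 363) and 199 and 347 for the combination against the antibody (347 and 356). Leaving out arrays gave 183 to 683 for the antibody, 273 to 755 for TNF, 1404 to 2592 for the combination, 162 to 905 against TNF, 214 to 767 against the antibody and 0 to 11 for the interaction.

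Changes that were not called turned sign under some settings. Means over probe sets gave Cdh5 -0.0736 and Ptprb -0.10 for the antibody, Cdh5 -0.071 and Ptprb -0.18 for TNF and Egfl7 -0.17 for the combination. Tie1 with TNF was 0.16 with an offset of 1, 0.0268 with equal medians and 0.0227 with quantile normalization. Egfl7 with the stricter filter, which leaves another probe set, was -0.10 for TNF and -0.39 for the combination, and with an offset of 1 -0.0022 for the combination. Leaving out arrays, the ranges that crossed 0 were Pecam1 -0.0311 to 0.59, Vwf -0.87 to 0.31 and Emcn -0.15 to 0.46 for the antibody, Cdh5 -0.12 to 0.33, Tie1 -0.17 to 0.22, Vwf -0.54 to 0.13, Esam -0.16 to 0.31, Emcn -0.22 to 0.17, Ptprb -0.0633 to 0.17 and Sele -0.14 to 0.36 for TNF and Vwf -0.37 to 0.37, Emcn -0.026 to 0.44, Ptprb -0.30 to 0.0013 and Egfl7 -0.17 to 0.14 for the combination. The median difference between number 0 and the others was 2.97 with an offset of 50 and 2.91 with means over probe sets (3.42 otherwise), and all 10 kept their order under each setting. Of 342 changes of single genes against PBS under other settings, 315 kept direction and side of the threshold, 17 turned sign, 7 lost a call and 3 gained one. Of 684 with arrays left out, 608 did so, 47 turned sign, 22 lost a call and 7 gained one. Low signals limit Vwf and Tie1 on numbers 1 to 3, and the cause of each change was not tested.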
